A study of Mus musculus with 6 samples.

Results

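The genes described here are 44 protein components of the cytosolic ribosome, chosen by name: every non-control probe whose gene name in the array files was one of the 44 symbols was taken. For 43 of the 44 genes the arrays held at least 1 probe so named, 94 probes among the 39429 probes of the array, and 93 of these 94 were tested. Rpl37 was the gene without a probe of its own name. The genes encode 23 proteins of the large subunit body, 3 proteins of its stalk (Rplp0, Rplp1 and Rplp2) and 18 proteins of the small subunit. RNA came from brain tissue of male mice on the C57BL/6N background, and the 2 groups were 3 wild-type samples and 3 Pla2g2e knockout samples, all titled as sham-operated. The product of Pla2g2e is a secreted enzyme of the phospholipase A2 family, which releases fatty acids from phospholipids. The treatment text attached to all 6 samples describes an occlusion of the middle cerebral artery, and the labels do not settle which description is right. The labels give neither the ages of the mice nor the part of Pla2g2e that was deleted, and nothing in them ties each sample to an animal of its own. A p-value here therefore sets a difference only against the scatter among these 6 samples, part of which may be technical.

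Cytosolic ribosomes translate nearly all messenger RNAs of a cell. Each ribosome holds about one copy of most of these proteins, placed on ribosomal RNA in the nucleolus and finished in the cytoplasm, and the genes are transcribed at high levels in nearly every cell type. Their messenger RNAs are short and mostly begin with a run of pyrimidines, the terminal oligopyrimidine tract, through which mTOR signalling raises or lowers their translation without a matching change in messenger RNA level. In brain, ribosomes are dense in neuronal cell bodies and also occur in dendrites and axons. The arrays measure messenger RNA and not ribosomes or translation. In bulk tissue, fewer cells of a type and less RNA per cell cannot be told apart.

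Ribosomal protein genes have many processed copies in the mouse genome, and array probes of 60 bases can differ from one another by single bases, so the probe sequences matter for what is read. Both Rplp0 probes below lie across the end of the coding sequence, with 53 bases in common and 5 mismatches. They are shown because they are placed at nearly the same site, and their values are given separately further on. The difference between them was not tested. Capitals mark the mismatched bases.
Rplp0 probe 1, chr5:116013404-116013463 (mm9, plus strand): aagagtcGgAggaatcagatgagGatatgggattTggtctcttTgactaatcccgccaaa
Rplp0 probe 2, chr5:116013397-116013456 (mm9, plus strand): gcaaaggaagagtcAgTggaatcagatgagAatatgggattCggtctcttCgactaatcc
Counted from 1 at the start of probe 1, with the base of probe 1 first, the substitutions are G8A, A10T, G24A, T35C and T44C. The next pair shows 30 bases from 2 Rpl11 probes, again with the mismatched bases in capitals. The first probe spans chr4:135605902-135606224 and the second spans chr4:135605879-135606201 (mm9, minus strand), each with a gap, and C33T and G39A separate them when counted from the start of the first.
Rpl11 probe 1: gcagaagtaCgatggGatcatccttcctgg
Rpl11 probe 2: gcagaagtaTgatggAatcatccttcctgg
Across the genes, 11 pairs of probes of the same gene shared at least 30 bases, and 1 of the pairs, of Rpl10a, had no mismatch. Of all 93 tested probes of these genes, 43 (46.2%) carried a polyadenylation signal, AATAAA or ATTAAA, the hexamers that mark the end of most messenger RNAs. The share was 17.5% of all tested probes of the array. It was 32.2% of the bright ones, with a mean level above 3 on the scale given below. A stretch of 30 bases around the signal, which is in capitals, is shown for the brightest probes of Rps21 and Rplp1, which will be described for their spread between arrays.
Rps21, in chr2:179993084-179993143 (mm9, plus strand): gaatttgttacaAATAAAagttttaagtac
Rplp1, in chr9:61761086-61761145 (mm9, minus strand): gttaagttggccAATAAAgagctgaacctg

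The starts of the genes share letters too. Of the 44 genes, 35 had an entry in a RefSeq promoter table (GRCm38.p6), 42 promoters in all. CTTTC or CTTTT, a simple stand-in for a pyrimidine tract after a C, occurred on the gene's strand between 25 bases before and 20 bases after the start in 12 of 42 promoters (28.6%), and in 10.7% of all 32851 promoters of the table. On the other strand the shares were 9.52% and 9.60%. CCGGAA, a core of ETS family binding sites, occurred on either strand of the 300 bases in 21 of 42 promoters, against 14.9% of all. TATAAA was in none of the 42 within the 50 bases before the start on either strand, and in 3.50% of all. A match is only a description of letters. Windows of 4 genes, from 20 bases before to 10 bases after the start, are given with CTTTC or CTTTT in capitals (GRCm38.p6, RefSeq).
Rps6, chr4:86857358-86857387 (minus strand): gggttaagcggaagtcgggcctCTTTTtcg
Rplp2, chr7:141447631-141447660 (plus strand): cccactgcgtcagcgtcttcCTTTCgccgc
Rpl38, chr11:114668560-114668589 (plus strand): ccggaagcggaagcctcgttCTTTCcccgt
Rpl28, chr7:4792945-4792974 (plus strand): tcgtcccgcctctcgtgtctctCTTTCcgt

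Every array held 43020 non-control spots, of which 35288 (82.0%) to 36676 (85.3%) were well above background and 0 were saturated. Wild-type arrays 1, 2 and 3 and knockout array 1 shared 1 slide, and knockout arrays 2 and 3 were on another. All 94 ribosomal protein probes were well above background on all 6 arrays, with 1 spot each. Levels below are log2 signal intensities relative to the 75th percentile of the same array, so a level of 0 means as bright as that percentile, and 3 arrays a group limit the precision. Pla2g2e itself was dim: its probe at chr4:138438659-138438718 (mm9) read -7.14, -7.31 and -6.73 in wild type and -7.11, -7.94 and -7.90 in knockout, and the other, at chr4:138438368-138438427, differed in the opposite direction (0.33 ± 0.18, SE), with all knockout arrays above all wild-type arrays. The groups of the first probe overlapped (difference -0.59 ± 0.27, SE, adjusted p = 0.441 in limma), and since the deleted part is not stated, neither probe checks the labels. The neuronal gene Snap25, which encodes a synaptic SNARE protein, was bright on every array (5.29 to 5.66). The 14 probes of a list of neuronal genes had mean levels from -1.48 to 5.85, with a median of 3.15.

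Between knockout and wild type, the messenger RNAs of the ribosomal proteins differed by less than could be called. Over the 93 tested probes the median log2 difference was 0.01, against -0.01 over all 31940 tested probes, and single differences ran from -0.20 (a dim Rpl6 probe) to 0.12 (Rps21). The difference was above 0 at 53 probes and below 0 at 40, against 14944 and 16996 of all tested probes. With Benjamini-Hochberg adjustment over all tested probes, 0 of the 93 were called in limma (smallest adjusted p = 0.428), and 0 of 31940 probes were (0.0%). At an unadjusted p under 0.05 there were also 0 of 93, while 3858 of all tested probes (12.1%) passed that mark, 979 higher (3.07%) and 2879 lower (9.01%). With the slide as a fixed block, which leaves the difference within the slide that holds both genotypes, the median over the 93 probes turned to -0.01, with 30 above 0 and 63 below, against -0.02 over all tested probes. The direction of the median also changed with the scaling: it was 0.01 after normexp background correction, -0.01 after quantile normalization, where that of all tested probes was 0.01, and 0.13 after median centring, which moved all tested probes to 0.11.

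The arrays that entered and the scaling changed a few of these counts. Without knockout array 1, 873 of 32800 probes (2.66%) passed an adjusted p of 0.05 in limma, and 0 of 91 ribosomal protein probes did. All wild-type arrays then lay on 1 slide and both remaining knockout arrays on the other, so genotype and slide cannot be told apart there. After median centring 4 ribosomal protein probes were higher at an unadjusted p under 0.05, of Rpl6, Rps13, Rpl27 and Rpl5, against 11.9% of all tested probes. A dim Rpl6 probe was the 1 lower probe when the slide was a random block, against 10.3% of all, and again when wild-type array 1 was left out, against 6.94% of all.

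The intervals show how small a change the arrays could still have held. The 95% confidence interval of the difference stayed inside a 1.5-fold change in either direction at 93 of 93 probes. It did so at 22666 of all 31940 tested probes, and at 2775 of the 2859 with a mean level above 3. The median half-width was 0.17 against 0.26 over all tested probes. The widest reach downwards was -0.57 (Rpl6, the probe at chr5:121655179-121655238) and upwards 0.40 (Rps21). Differences lay within 0.1 of 0 at 85 probes (91.4%), against 46.8% of all tested probes. Ribosomal protein probes are bright, and 80 of the 93 had a mean level above 3. Among all 2859 tested probes above that level, 77.4% lay within 0.1 of 0, and the median difference was 0.03, against 0.01 for the 80.

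**Figure D1:**
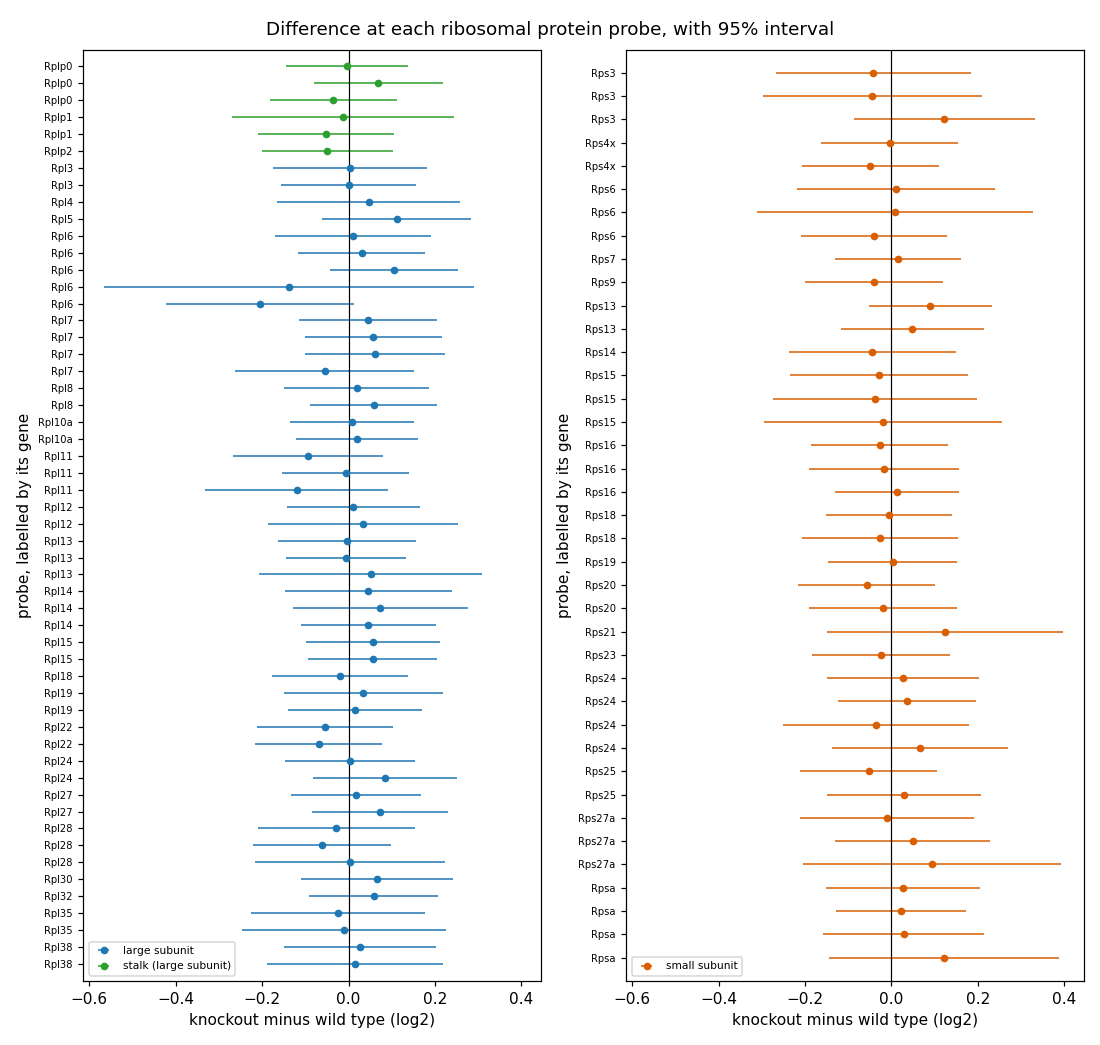
Each point is the knockout minus wild-type difference (log2, x axis) of 1 tested ribosomal protein probe, labelled by its gene, and the bar is its 95% confidence interval from limma (3 arrays a group). Stalk and large subunit probes are on the left, small subunit probes on the right. All 93 intervals include 0, and the differences lie between -0.20 and 0.12.

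In the large subunit body, 48 probes of 22 genes had a median difference of 0.02, with 33 above 0 and 15 below. Among all tested probes with a mean level above 3, 1968 were above 0 and 891 below. With the slide as a fixed block the median of the 48 probes was -0.01. Rpl3, which lines the peptidyl transferase centre, had the same mean level in both groups at its brighter probe, 5.95 ± 0.07 (SD, n = 3 each). Rpl5 and Rpl11, which bind an RNA of the large subunit together and hold back Mdm2 when ribosome assembly fails, were both measured. The Rpl5 probe read 3.32, 3.20 and 3.15 in wild type and 3.32, 3.34 and 3.34 in knockout, a difference of 0.11 ± 0.07 (SE, adjusted p = 0.555 in limma). Wild-type array 1 lay among the knockout arrays, so the groups overlapped. At the brightest Rpl11 probe the levels were 5.77, 5.81 and 5.80 in wild type and 5.61, 5.78 and 5.71 in knockout, a difference of -0.09 ± 0.07 (SE). The other Rpl11 probes, read at overlapping sites, gave -0.01 and -0.12, so the size differed between probes of 1 gene.

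Rpl38, a protein known from mouse mutants with changed axial skeleton and from the translation of some Hox messenger RNAs, had 2 overlapping probes, which gave 0.03 and 0.02. Rpl10a, whose tagged form is widely used to pull down ribosomes from chosen cell types, was among the 3 genes with the smallest range between arrays at the brightest probe. It read 5.11, 5.12 and 5.07 in wild type and 5.09, 5.14 and 5.10 in knockout, with the groups interleaved. Another Rpl10a probe was not tested, because its spot was marked as an outlier on knockout arrays 2 and 3. Rpl22, an RNA-binding protein with a close paralog, read lower in knockout at its dimmer probe, chr4:151708012-151708071: 1.76, 1.83 and 1.77 in wild type against 1.73, 1.69 and 1.73. The groups did not overlap. Their difference was -0.07 ± 0.06 (SE, adjusted p = 0.663 in limma), and the brighter Rpl22 probe gave -0.05. Rpl32, often used as a reference gene, read 5.48, 5.44 and 5.44 in wild type and 5.48, 5.56 and 5.49 in knockout. Its lowest knockout value was just above its highest wild-type value, and the difference was 0.06 ± 0.06 (SE). For Rpl37, 1 probe named for a related retrotransposed copy, Rpl37rt, lists the accession of Rpl37 (chr5:115552931-115552973). It was not counted among the 94, and its difference was -0.09 ± 0.09 (SE, adjusted p = 0.680 in limma). Rpl3, Rpl5, Rpl38 and Rpl37 were chosen for their known roles or for coverage after their values were seen.

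The stalk recruits the elongation factors to the ribosome, with Rplp0 as its base and Rplp1 and Rplp2 bound to it in pairs. Its 6 probes had a median difference of -0.02, with 1 above 0 and 5 below, which turned to 0.09 with 6 above 0 after median centring. Rplp0 probe 1, shown above, read 5.21, 5.22 and 5.17 in wild type and 5.21, 5.20 and 5.19 in knockout, a range of 0.05 over 6 arrays and a difference of -0.0035 ± 0.06 (SE). Rplp0 probe 2 read 4.10, 4.10 and 4.07 in wild type and 4.10, 4.17 and 4.19 in knockout. All knockout values of probe 2 were above all wild-type values, knockout array 1 by less than the rounding, and the difference was 0.07 ± 0.06 (SE, adjusted p = 0.664 in limma). The other Rplp0 probe, downstream of both, gave -0.04. Rplp1 read 6.09, 6.35 and 6.27 in wild type and 6.07, 6.31 and 6.28 in knockout at its brighter probe. Array 1 was the low one in both groups, and the difference was -0.01 ± 0.10 (SE). Rplp2 read 5.97, 5.99 and 6.05 in wild type and 5.99, 5.96 and 5.92 in knockout, a difference of -0.05 ± 0.06 (SE).

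In the small subunit, 39 probes of 18 genes had a median difference of -0.0038, with 19 above 0 and 20 below, and a median of 0.11 after median centring. Rps6, the protein that S6 kinases phosphorylate downstream of mTOR, had a large range at its brightest probe: 4.85, 4.95 and 4.65 in wild type against 4.81, 4.85 and 4.82 in knockout. The spread lay within the wild-type group, from array 2 down to array 3, and the difference was 0.01 ± 0.09 (SE). The second Rps6 probe showed the same order, with 3.43 on wild-type array 2 and 2.96 on wild-type array 3 as its extremes. The other, dimmer Rps6 probe did not, with 0.63 on wild-type array 2 and 0.74, its highest value, on wild-type array 3. Rps3, at the messenger RNA entry channel, read 4.33, 4.49 and 4.20 in wild type and 4.23, 4.35 and 4.32 in knockout, again with wild-type arrays 2 and 3 at the ends. Rps21 had the largest range of a brightest probe among the 43 genes, 0.38. It read 4.40, 4.32 and 4.22 in wild type and 4.24, 4.60 and 4.47 in knockout. Knockout arrays 2 and 3 were the high ones and knockout array 1 lay with the wild type, so its difference of 0.12 ± 0.11 (SE) had an adjusted p of 0.671 in limma. On the slide that holds both genotypes, where knockout array 1 is the only knockout array, the Rps21 difference was -0.07.

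Rps13, which sits near a bridge between the subunits, had the 1 probe of the small subunit with separate groups. Its probe at chr7:123475080-123475934 read 5.07, 5.05 and 5.05 in wild type and 5.12, 5.18 and 5.15 in knockout, a difference of 0.09 ± 0.06 (SE, adjusted p = 0.560 in limma). All knockout arrays were above all wild-type arrays there, but at the other Rps13 probe they overlapped, with a difference of 0.05. Rps18, a protein of the small subunit head and a common reference gene, read 3.66, 3.69 and 3.66 in wild type and 3.66, 3.63 and 3.70 in knockout. Rps27a is made as a fusion to ubiquitin, so its messenger RNA also supplies that protein. Its brightest probe read 5.79, 5.76 and 5.69 in wild type and 5.70 and 5.78 in knockout, where array 2 was left out as an outlier spot, and the difference was -0.01 ± 0.08 (SE). The second Rps27a probe gave 0.05 ± 0.07 (SE), and another, dimmer one 0.09 ± 0.12. Rps14, a protein of the small subunit platform, was the brightest probe of all 93, with mean levels of 6.56 ± 0.05 and 6.52 ± 0.10 in wild type and knockout (SD, n = 3 each). Rps19, the gene most often mutated in Diamond-Blackfan anaemia, read 3.67 ± 0.02 and 3.68 ± 0.05. Rps14 and Rps19 were also chosen after their values were seen.

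Groups did not overlap at 6 of the 91 probes with a value on all 6 arrays (6.59%), 4 higher in knockout (Rps13, Rpl6, Rplp0 and Rpl32) and 2 lower (Rpl6 and Rpl22). Over all probes with 6 values this happened at 19.4%, with 7.46% higher and 11.9% lower. At a mean level above 3 the share was 5.13% for ribosomal protein probes and 16.4% for all probes. The largest of the 6 differences was -0.20 and the smallest 0.06, with adjusted p-values between 0.428 and 0.717 in limma.

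Rpl6, a large subunit protein, appeared in both directions. It had 5 tested probes, and its differences spanned the widest interval of any of the 43 genes. The probe at chr5:121658582-121658847 read 4.63, 4.58 and 4.61 in wild type and 4.67, 4.74 and 4.72 in knockout, a difference of 0.11 ± 0.06 (SE, adjusted p = 0.516 in limma). Its groups were separate, with knockout higher on every array. The probe at chr5:121659155-121659214, further downstream and dim, read -5.01, -4.92 and -4.77 in wild type and -5.01, -5.15 and -5.16 in knockout. Its groups were separate in the other direction by less than the rounding, since wild-type array 1 and knockout array 1 nearly met, and the difference was -0.20 ± 0.09 (SE, unadjusted p = 0.061, adjusted p = 0.428 in limma). The 2 brightest Rpl6 probes, at chr5:121658915-121658974 and chr5:121658820-121658879, gave 0.01 and 0.03. The remaining probe, upstream at chr5:121655179-121655238, read -0.31, -0.35 and 0.27 in wild type and -0.30, -0.28 and -0.22 in knockout. Wild-type array 3 alone was high there, and both other wild-type arrays were below all knockout arrays.

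Among the 31 genes with more than 1 tested probe, the probes differed in sign in 11. Beside Rpl6, the genes whose probes differed most were Rps3 (-0.04, -0.04 and 0.12), Rpl7 (from -0.06 to 0.06), Rpl11 and Rplp0. Rpl7 read 3.78, 3.77 and 3.79 in wild type and 3.87, 3.61 and 3.70 in knockout at its dimmest probe, where the wild-type arrays lay within 0.02 of each other and the knockout arrays spread on both sides of them. None of these differences passed the test, and which of several probes stands for the messenger RNA was not settled by the files.

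The ribosomal protein probes varied little from array to array. The median range over 6 arrays was 0.15, against 0.39 over all tested probes, and the median SD was 0.04 in wild type and 0.05 in knockout, against 0.14 and 0.10. Bright probes as a whole had smaller ranges: above a level of 3 the median range was 0.15 for ribosomal proteins and 0.20 for all probes. In bins of 1 log2 unit of level, 66 of 93 ribosomal protein probes had a range under the median of all tested probes in their bin, 11 lay under its 5th percentile and 0 above its 95th. The tightest was a Rpl13 probe with a range of 0.03, which the files place on chromosome 4 (chr4:52254267-52254326) although the gene lies on chromosome 8. It read 5.03, 5.06 and 5.06 in wild type and 5.05, 5.04 and 5.05 in knockout, and was picked out after its values were seen. The widest was the upstream Rpl6 probe with 0.62. The 8 probes with a level of 0 or less, of 7 genes, had a median range of 0.34.

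**Figure D2:**
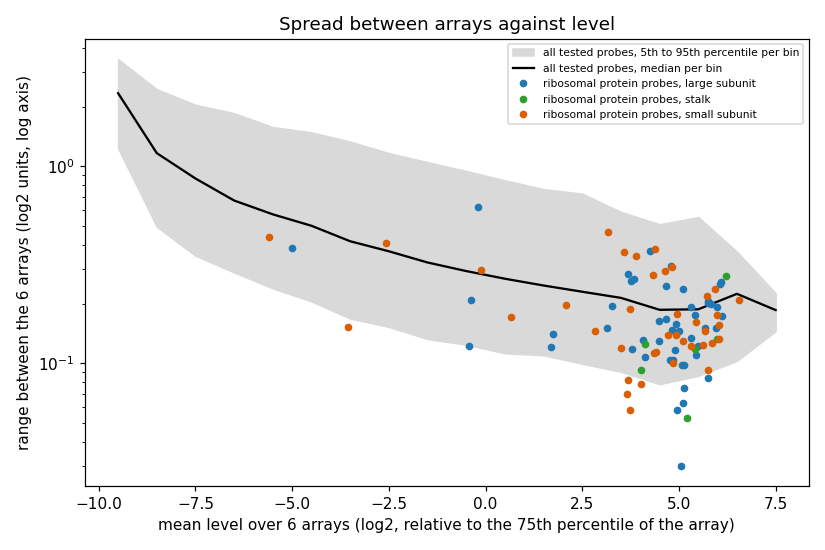
Each coloured point is 1 ribosomal protein probe, at its mean level over 6 arrays (log2 relative to the 75th percentile of the array, x axis) and its range between the arrays (log2 units, log axis). The line is the median and the grey band the 5th to 95th percentile of all tested probes in bins of 1 log2 unit. Of 93 points, 66 lie under the median of their bin and 0 above the band.

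Small shifts of whole arrays remained. Set against the mean of the wild-type arrays, the median over ribosomal protein probes was -0.01, 0.02 and -0.02 on wild-type arrays 1, 2 and 3 and -0.01, 0.04 and -0.0020 on knockout arrays 1, 2 and 3. Knockout array 2 was the highest array at 36 probes and wild-type array 2 at 26, against 6458 and 4940 of all 31940 tested probes. Wild-type array 3 was the lowest at 30 and knockout array 1 at 25, and the lowest array was not counted over all tested probes. The shifts of knockout arrays 1 and 2 were larger in one kind of probe. At the 43 probes with a polyadenylation signal the median deviation from the probe's own mean was -0.05 on knockout array 1 and 0.08 on knockout array 2, and array 2 was above array 1 at 39 of 43. At the 46 probes with an open reading frame and no signal, the medians were -0.0026 and 0.0043, and array 2 was above array 1 at 24 of 45. An open frame here means only that some reading frame of the probe held no stop codon. That class held 68.2% of all tested probes and does not mark coding sequence. Among all tested probes above a level of 3, which include ribosomal protein probes, the same medians were -0.03 and 0.08 at 922 with the signal. They were -0.01 and 0.05 at 1621 with an open frame. The shift of knockout array 2 was therefore seen beyond the 43 probes, but a set without ribosomal proteins was not examined. Knockout array 1 lay on the slide of the wild-type arrays, and arrays 2 and 3 on the other. Knockout array 3 did not share the shift of array 2 at the 43 probes with the signal, where its median was -0.01. Among all tested probes with the signal above a level of 3 its median was 0.01. The part of the slide in these shifts was not tested.

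**Figure D3:**
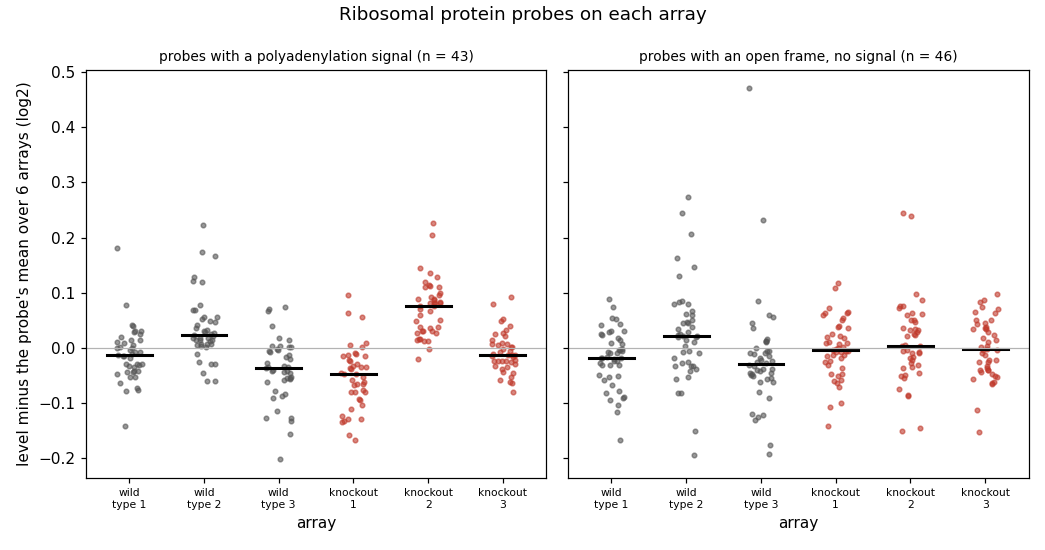
Points are ribosomal protein probes, as the level on 1 array minus the probe's mean over 6 arrays (log2, y axis), with wild-type arrays in grey, knockout arrays in red and black bars at the medians. With a polyadenylation signal (left, 43 probes) knockout array 1 lies low and knockout array 2 high, at -0.05 and 0.08. With no signal and some reading frame free of stop codons (right, 46 probes) both lie near 0.

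The rest of the translation machinery was set beside these genes. The other cytosolic ribosomal proteins, 92 probes of 35 genes, had a median difference of 0.0027, or -0.0060 after quantile normalization, and a median range of 0.15. None of these passed the adjusted test in limma, and groups did not overlap at 7 of 88 (7.95%, against 19.4% of all probes). Rps26, which binds messenger RNA near the exit channel, gave -0.10 ± 0.06 (SE) with separate groups. The highest of that list were both Rpl17 probes, at 0.16 and 0.15. Among 7 paralogs with tissue-restricted or alternative use, Rpl22l1, the paralog of Rpl22, read 4.42, 4.37 and 4.42 in wild type and 4.47, 4.53 and 4.51 in knockout. Its difference was 0.10 ± 0.06 (SE, adjusted p = 0.531 in limma), opposite in sign to Rpl22 itself. Rps4l gave -0.40 ± 0.22, Rpl10l, dim on all arrays, 0.81 ± 0.36 and Rpl3l -0.10 ± 0.12.

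The mitochondrial ribosomal proteins, which serve the separate ribosomes of mitochondria, had a median difference of 0.06 over 109 probes of 78 genes. Their median level was 1.52, and 94 differences were above 0 and 15 below. Among all tested probes with a mean level above 0, 6241 were above 0 and 3440 below, with a median difference of 0.03. The list's median was 0.05 after normexp and 0.04 after quantile normalization, where that of all tested probes was -0.03 and 0.01. After median centring, which moved all tested probes to 0.11, it was 0.17. None passed the adjusted test. At an unadjusted p under 0.05, 6 were higher and 3 lower, against 3.07% and 9.01% of all tested probes. With the slide as a fixed block, which sets only knockout array 1 against wild type, the median difference was 0.06. Groups did not overlap at 27 of 109 (24.8%), 24 of them higher, against 19.4% and 7.46% higher over all probes. Among all probes with 6 values and a mean level above 0, the share was 16.1%, and 1198 of 9564 were higher. Mrpl47 read -2.13, -2.20 and -2.23 in wild type and -1.96, -2.01 and -1.98 in knockout, a difference of 0.21 ± 0.06 (SE, adjusted p = 0.331 in limma), and a dim Mrpl21 probe gave 0.66 ± 0.23. Mrpl9 was lower at both probes, by -0.38 ± 0.11 and -0.24 ± 0.09. The wild-type arrays themselves spread, with list medians of 0.02, 0.03 and -0.04 against 0.06, 0.07 and 0.06 in knockout.

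Ribosome biogenesis factors, 67 probes of 43 genes, had a median of 0.06, with 57 above 0 and 10 below. Their median level was 0.26, and all tested probes above a level of 0 gave 6241 above and 3440 below. At an unadjusted p under 0.05, 1 was higher and 1 lower, against 3.07% and 9.01% of all tested probes. Groups were separate at 12 (17.9%, against 19.4% of all probes). The median ran from 0.06 to 0.18 over normexp, quantile normalization and median centring, while that of all tested probes ran from -0.03 to 0.11. Rrp1, a nucleolar processing factor, gave 0.16 ± 0.06 (SE) and Bysl, needed for small subunit assembly, 0.18 ± 0.08. A dim probe of Polr1a, the largest subunit of RNA polymerase I, gave -0.43 ± 0.17, and a Npm1 probe -0.14 ± 0.10. Translation factors, 64 probes of 40 genes, had a median of 0.03, from 0.0048 to 0.15 over the same 3 scalings, and 0 probes at an unadjusted p under 0.05 in either direction. In that list the release factor Gspt1 gave 0.17 ± 0.07 and a dim probe of the cap-binding Eif4e 0.69 ± 0.29, while Eif2s1 gave -0.11 ± 0.07 and Eif2s3x -0.24 ± 0.18.

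Regulators of ribosomal protein genes and of the pyrimidine-tract messenger RNAs, 32 probes of 20 genes, had a median of 0.07. Over the 3 scalings it ran from 0.05 to 0.19. At an unadjusted p under 0.05, 1 probe was higher and 1 lower, against 3.07% and 9.01% of all tested probes. Eif4ebp1, a repressor of cap-dependent translation that mTOR switches off, read -1.08, -1.01 and -1.23 in wild type and -0.87, -0.96 and -0.78 in knockout, a difference of 0.24 ± 0.09 (SE, adjusted p = 0.380 in limma). Rptor, the scaffold of mTOR complex 1, differed in sign between its probes, 0.14 ± 0.06 at a level near 2 and -0.66 ± 0.13 at a dim one (adjusted p = 0.251 in limma). A Rps6kb2 probe gave -0.16 ± 0.11. Reference genes, 23 probes of 10 genes, had a median of 0.02, with 14 above 0 and 9 below. Of these, 0 were higher and 1 lower at an unadjusted p under 0.05, against the same 3.07% and 9.01%.

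Marker genes of brain regions and cell types varied between these samples over a wider range than the ribosomal protein probes. As a difference from the average wild-type level, the median of 15 striatal probes was -0.21, -0.66 and 0.92 on the wild-type arrays and -0.64, -0.61 and -0.70 on the knockout arrays, so that wild-type array 3 stood apart. Blood genes, 6 probes, ran from -0.95 to 1.14 in wild type and from -2.11 to 1.53 in knockout. Choroid plexus genes, 9 probes, read 0.43, -0.70 and 0.54 in wild type and -0.50, -0.88 and -0.71 in knockout. Meningeal and fibroblast genes, 10 probes, were below the wild-type mean on all knockout arrays (-0.85, -0.50 and -0.34), and all 10 differences were below 0, also after normexp, quantile normalization and median centring. Oligodendrocyte genes ran from -0.37 to 0.39 in wild type and from -0.64 to 0.04 in knockout. Astrocyte, microglial and neuronal lists had median differences of -0.02, 0.01 and 0.04, of which the first turned to 0.10 after median centring and the second to -0.0069 after quantile normalization and -0.0039 after normexp. On the same arrays the ribosomal protein median stayed between -0.02 and 0.04. Wild-type array 3, with the highest striatal genes, was the lowest array at 30 of the ribosomal protein probes, a count not made over all tested probes. The part of these cell types in the differences above was not tested.

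**Figure D4:**
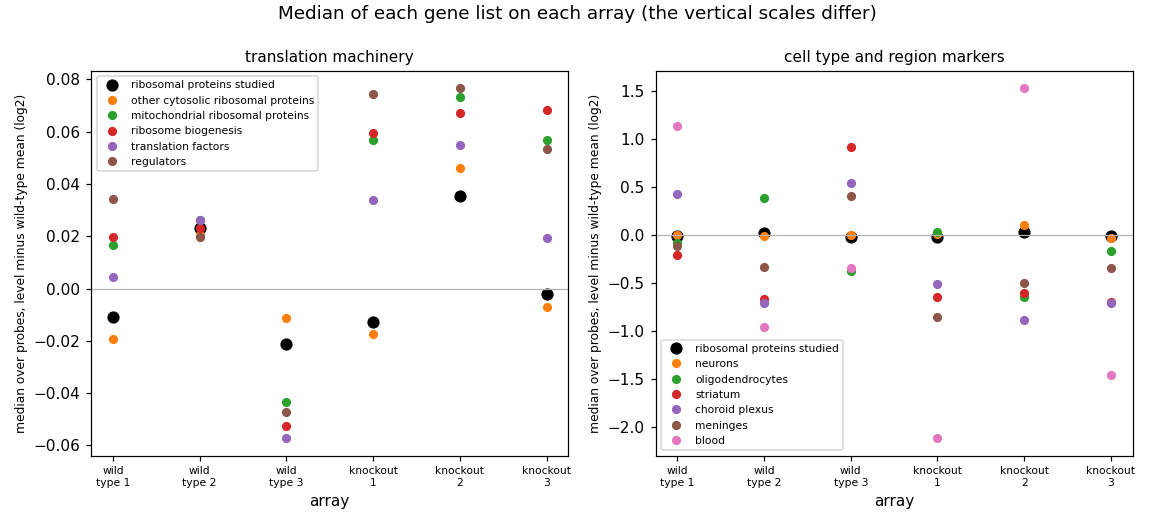
Points are medians over the tested probes of a gene list on each array, as level minus the wild-type mean (log2, y axis), for translation machinery (left) and for markers of cell types and regions (right). The vertical scales differ. The ribosomal proteins (black) lie between -0.02 and 0.04 on every array, while blood genes run from -2.11 to 1.53.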

How the data were processed

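Total RNA of 6 brain samples was labelled with Cy3 and hybridised to 1-colour Agilent arrays, per the labels' protocols. In the deposited files are spot intensity values that Agilent Feature Extraction 12.1.1.1 had background-subtracted and detrended, per the file headers, which name mm9 for the probe positions. Very dim spots carry a software-set value (2368 to 3150 a array). Control spots and spots marked as outliers (68 to 530 a array) were left out. The log2 processed signal minus the 75th percentile of the array was taken. Tested probes had at least 2 values in each group and, in 1 group or both, were well above background on all arrays. The 94 probes were taken by the file's gene name alone, and those of the other lists by that name or through RefSeq accessions. Such an accession matched 29510 probes, among them 82 of the 94.

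Knockout and wild type were compared probe by probe with limma 3.58.1 (lmFit, eBayes) in R 4.3.3, two-sided, with Benjamini-Hochberg adjustment over 31940 probes at 0.05. Exact permutation of 3 against 3 arrays cannot give a p under 0.1 and was not used. Lists are described by counts and medians only. The code was tested on simulated data. The genes and lists were chosen with earlier results of these data known. Named probes are Pla2g2e, those with non-overlapping groups, the 3 largest and 3 smallest ranges at the brightest probe, the 5 genes whose probes differed most, the stalk and Rps27a, and the 2 smallest p in each direction of each other pathway list. One such probe is not reported here. Sequences are those of the array files and of RefSeq. The exon under a probe is not given, since gene models of mm9 were not used here. Alternatives were normexp background correction, quantile normalization, median centring, other probe filters, the slide and the replicate number as blocks, 1 value per gene, and leaving out each array.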

Additional observations from a re-analysis of the deposited data

How the results depend on the processing

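In all, 12 single changes of processing and the 6 left-out arrays gave no ribosomal protein probe with an adjusted p under 0.05 in limma, and of 409 values of named probes under them 49 had the sign turned. The median over the ribosomal protein probes changed by less than its SD between arrays of a group under every alternative but median centring. There it was 0.13 and 4 probes were higher at an unadjusted p under 0.05 in limma, and that setting moved the median of all tested probes to 0.11. Under it the split of all tested probes at an unadjusted p under 0.05 was 3787 higher and 1510 lower, against 1952 and 1705 after quantile normalization and 979 and 2879 with the 75th percentile. With the slide as a random block 1 ribosomal protein probe was lower at that mark, and with each array left out in turn this count ran from 0 to 1, the 1 being without wild-type array 1. The number of all tested probes past an adjusted p of 0.05 ran from 0 to 873 over the left-out arrays, with 873 only without knockout array 1. Leaving that array out puts each genotype on a slide of its own, so genotype and slide cannot be told apart in that count. Replicate numbers did not pair the samples (correlations of -0.04, -0.15 and -0.10 over 31623 probes), and with the replicate number as a block 0 ribosomal protein probes and 0 of all tested probes passed, while the median difference was 0.01. The mean of the probes of a gene gives no value per probe.

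With normexp, 1 Rpl11 probe gave 0.0056. Quantile normalization gave -0.011 for Rpl10a, 0.045 for the brightest Rps27a probe and -0.0082 for the brightest Rps6 probe. Median centring gave 0.11 for the same Rpl11 probe, 0.050 for the dimmer Rpl22 probe, 0.063 for the dimmest Rpl7 probe, 0.11 for Rps18, 0.11 for the brightest Rps27a probe, 0.077 and 0.075 for the 2 brighter Rps3 probes, 0.11 for Rplp0 probe 1 and 0.083 for the one downstream, 0.11 and 0.066 for Rplp1 and 0.070 for Rplp2. The slide as a fixed block gives the same differences as the slide with both genotypes alone, and so sets only knockout array 1 against wild type. Its values were -0.0079 for Rpl10a, -0.0016 and 0.089 for 2 Rpl7 probes, -0.072 for Rps21, -0.0097 for the second Rps27a probe, -0.0072 for Rps6 and 0.0094 for Rplp0 probe 1. The slide as a random block gave 0.00060 for the brighter Rplp1 probe. The cause was not tested.

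Leaving out each array in turn, the differences that changed sign ran from -0.0067 to 0.017 for Rpl10a, from -0.027 to 0.011 for the Rpl11 probe, from -0.13 to 0.0028 for the dimmest Rpl7 probe and from -0.024 to 0.011 for Rps18. They ran from -0.037 to 0.0098 and from -0.0044 to 0.17 for 2 Rps27a probes, from -0.11 to 0.031 and from -0.12 to 0.057 for 2 Rps3 probes, and from -0.075 to 0.078 for Rps6. For Rplp0 probe 1 the range was -0.018 to 0.0084, and for the brighter Rplp1 probe -0.087 to 0.062. All 94 ribosomal protein probes were well above background on all 6 arrays, and 3 arrays a group limit the precision.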
